A study of Mus musculus with 8 samples.

Results

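The genes described here were listed together as genes that end or adapt the odor response of olfactory sensory neurons through calcium and cAMP. They are the calmodulin genes Calm2 and Calm3, the cAMP phosphodiesterase genes Pde1c and Pde4a, the sodium/calcium-potassium exchanger gene Slc24a4 and the calmodulin-dependent kinase gene Camk4. Their symbols were looked up in the deposited gene table, and all 6 were found among its 54982 rows and among the 21974 genes that passed the filter on low values. RNA was sequenced from whole olfactory mucosa, the lining of the nose that holds the sensory neurons, of mice at postnatal day 30 on a 129S6;C57BL/6J background, all labelled male. There were 4 libraries with the ΔTE1+2 deletion, which the labels call a deletion of T elements (candidate enhancers of the Taar receptor genes), and 4 control libraries from the same line (ΔTE1+2 WT). The labels give no other allele, and they do not say whether the deletion was carried on both chromosomes. They also do not say that each library came from a separate animal, so p-values measure only the spread between these libraries.

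In an olfactory sensory neuron, an odorant receptor activates the G protein subunit Gnal and the adenylyl cyclase Adcy3, and the cAMP they make opens a cyclic nucleotide-gated channel that lets in sodium and calcium. Calcium first amplifies the response by opening the chloride channel Ano2, and then ends it. Bound to calmodulin, calcium lowers the channel's affinity for cAMP, activates the ciliary phosphodiesterase Pde1c and switches on calmodulin-dependent kinases. Slc24a4 carries calcium back out of the cilium, while Pde4a breaks down cAMP in the cell body and dendrite and is scarce in cilia. Camk4 is a mainly nuclear kinase known for acting on the transcription factor CREB.

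No difference in the RNA level of any of the 6 genes between deletion and control mucosa passed the test. Adjusted p-values were 0.869 to 0.974 (limma with Benjamini-Hochberg adjustment over all tested genes), and 0 of 6 passed, against 0.0728% of all tested genes (16 genes). No member had an unadjusted p under 0.05, against 3.5% of all tested genes, and for none did the deletion and control libraries fail to overlap, against 2.2%. The count tests on recovered reads also called 0 members, with 0 at an unadjusted p under 0.05, where edgeR's quasi-likelihood test called 0.0728% and DESeq2 0.105% of all genes. Log2 fold changes, deletion over control, were above 0 for 3 members and below 0 for 3, with a median of -0.01 beside 0.02 for all tested genes. Their 95% intervals bound the differences: the lowest edge of any member was 0.767-fold (Slc24a4) and the highest 1.29-fold (Calm2). In whole mucosa, fewer cells of a type and less RNA per cell cannot be told apart.

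**Figure D1:**
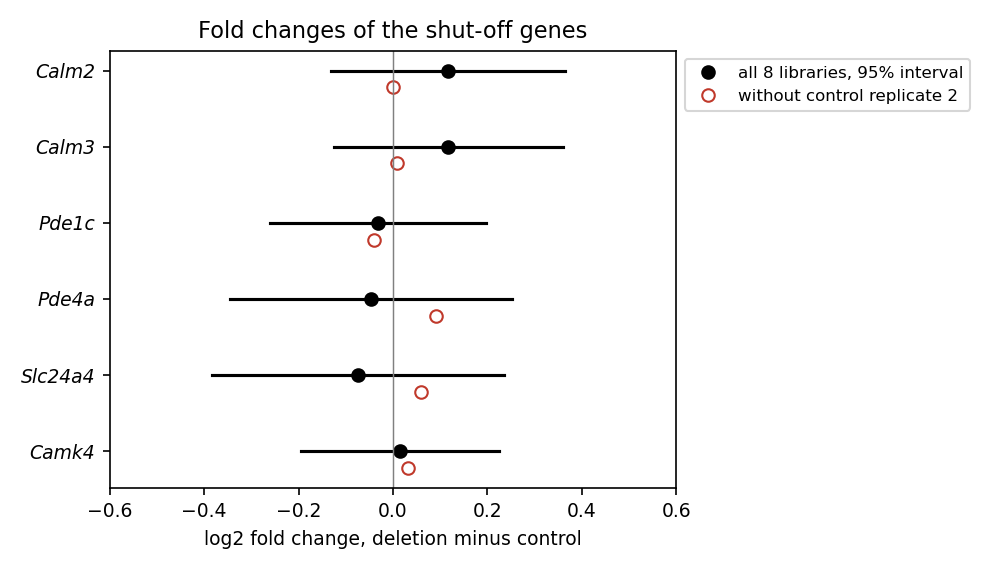
Log2 fold change (deletion over control, x axis) of each shut-off gene, as a filled point with its 95% interval from limma over 4 deletion and 4 control libraries, and as an open circle without control replicate 2. Every interval crosses 0, and the outermost edges lie at -0.38 for Slc24a4 and 0.36 for Calm2.

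Depth was 31655524 to 50748777 reads assigned to genes per library, and the members had between 330 reads (Camk4) and 65438 reads (Calm2) in a library, so the counting error of one library is 0.497% for Calm2 and 5.51% for Camk4 at their lowest counts (1 over the square root of the reads). It is small beside the spread between libraries for Calm2 and about as large as that spread for Camk4. The 14 Taar genes in the table summed to 11 to 83 reads in the deletion libraries against 2941 to 3594 in the control libraries libraries, so all 8 match their group labels. Against its label of male, deletion replicate 3 had 15300 scaled reads of Xist, where the other 7 libraries had 4.86 to 86.9, and 42.7 summed over Y-linked genes, where they had 9175 to 10930. Control replicate 2 stood farthest from the rest, with a median absolute log2 distance to the other 7 libraries of 0.255, where the others had 0.113 to 0.168. Member results are therefore given with and without each of these libraries. Without deletion replicate 3, log2 fold changes were 0.14 for Calm2, 0.17 for Calm3, -0.0002 for Pde1c, -0.10 for Pde4a, -0.15 for Slc24a4 and 0.03 for Camk4, and none passed the test.

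Calm2 and Calm3 are separate genes that encode the same protein. The coding sequences below are shown because they bear on whether reads of Calm2 and Calm3 can be told apart. Each is the first 90 coding bases, 5′ to 3′, of the GENCODE M21 transcripts Calm2-201 and Calm3-201 (GRCm38). Capitals mark the 15 positions at which they differ.
Calm2: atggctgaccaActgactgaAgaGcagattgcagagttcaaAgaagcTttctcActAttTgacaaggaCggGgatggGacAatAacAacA
Calm3: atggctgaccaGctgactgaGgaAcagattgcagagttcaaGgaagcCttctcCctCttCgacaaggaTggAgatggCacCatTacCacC
Over the whole coding sequence of 450 bases, Calm2 and Calm3 were 82.7% identical and differed at 78 bases, of which 74 lay at the last base of a codon. Their translations of 149 residues differed at 0 positions. The longest run of identical coding bases was 17. Reads longer than this that lie in coding sequence at matching positions differ between these genes. The untranslated exon sequence of the genes was not compared. How reads that match several places were counted is not given in the sources used here.

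Calm2 (ENSMUSG00000036438.12) lies on the minus strand at chr17:87433412-87446935 in GRCm38, with 1467 bp of exon. In scaled reads, the unit of the deposited table, it had 51285, 50269, 48784 and 56254 in the deletion libraries, against 53003, 37395, 53141 and 48664 in the control libraries. The lowest library was control replicate 2 and the highest was deletion replicate 4, and the groups overlapped. The means were 51648 ± 3238 in deletion and 48051 ± 7402 in control mucosa (SD, n = 4 each), giving a log2 fold change of 0.12 with a standard error of 0.11 (adjusted p = 0.869, limma). Later fold changes are also given ± SE. Leaving out control replicate 2 put the fold change at 0.0004, so 1 control library set its size.

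Calm3 (ENSMUSG00000019370.10, minus strand, chr7:16915379-16924114, 2423 bp of exon) had 32743, 31372, 27858 and 31572 scaled reads in the deletion libraries, against 33019, 22674, 29856 and 29192 in the control libraries. As for Calm2, control replicate 2 was the lowest of the 8, and the other 3 control libraries lay among the deletion libraries or above them. Calm3 averaged 30886 ± 2107 in deletion and 28685 ± 4342 in control mucosa (SD, n = 4 each), a log2 fold change of 0.12 ± 0.11 (limma adjusted p = 0.869). Without control replicate 2 it was 0.0087.

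The ratio of Calm2 to Calm3 reads does not depend on library scaling. It was 1.57, 1.60, 1.75 and 1.78 in the deletion libraries, against 1.61, 1.65, 1.78 and 1.67 in the control libraries, and averaged 1.68 ± 0.107 in deletion and 1.68 ± 0.0744 in control mucosa (SD, n = 4 each). This ratio was chosen after the values were seen and is given without a test. In control replicate 2, where both genes were at their lowest, it was 1.65, within 1 SD of the control mean. The ratio ranged from 1.57 to 1.78 over the 8 libraries.

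**Figure D2:**
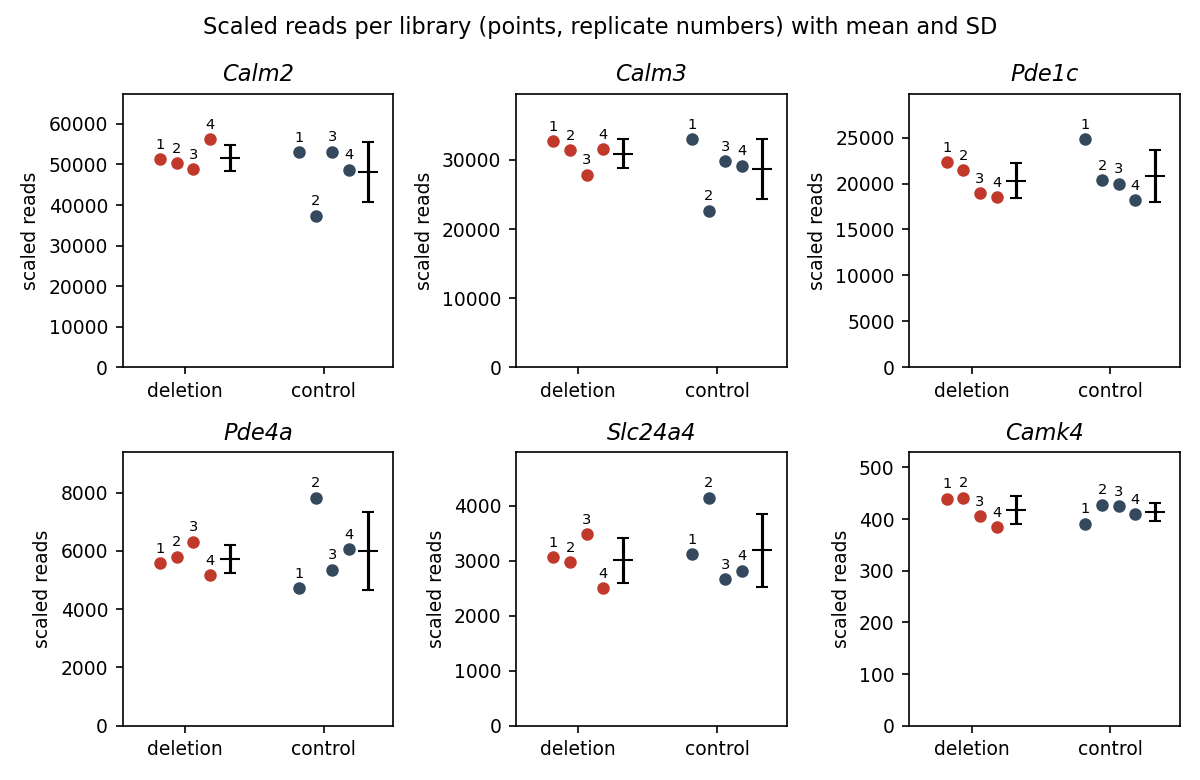
Scaled reads (y axes, starting at 0) of each shut-off gene in each library, deletion left and control right, with the group mean and SD (n = 4 each). Deletion and control points overlap in every panel. Control replicate 2 is the lowest point for Calm2 (37395) and Calm3 (22674) and the highest for Pde4a (7828) and Slc24a4 (4153).

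Pde1c (ENSMUSG00000004347.16, minus strand, chr6:56069804-56569103) encodes the calcium/calmodulin-activated phosphodiesterase of the cilia. It had 22356, 21466, 18940.0 and 18492 scaled reads in the deletion libraries, against 24846, 20371, 19968 and 18186 in the control libraries. Its highest and lowest values were both control libraries, replicates 1 and 4, so the deletion libraries lay inside the control range. The means were 20314 ± 1889 in deletion and 20843 ± 2833 in control mucosa (SD, n = 4 each), a log2 fold change of -0.03 ± 0.10 (limma adjusted p = 0.945), with a 95% interval of 0.835- to 1.15-fold. Unlike Calm2 and Calm3, Pde1c in control replicate 2 lay close to the mean of the other controls (log2 difference -0.03), and leaving it out gave -0.04. Leaving out control replicate 1, the highest library, turned the sign, to 0.06.

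Pde4a (ENSMUSG00000032177.17, plus strand, chr9:21165714-21213248), which acts on cAMP outside the cilia, had 5568, 5805, 6318 and 5172 scaled reads in the deletion libraries, against 4721, 7828, 5357 and 6062 in the control libraries. Control libraries were again both the lowest (replicate 1) and the highest (replicate 2). The means were 5716 ± 479 in deletion and 5992 ± 1341 in control mucosa (SD, n = 4 each), a log2 fold change of -0.05 ± 0.14 (limma adjusted p = 0.940). Pde4a in control replicate 2 was above the mean of the other controls by 0.55 on the log2 scale, and without that library the fold change was 0.09, with the sign turned.

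The log2 ratio of Pde1c to Pde4a reads compares the RNA of these phosphodiesterase genes within each library. RNA from whole mucosa does not show where in a cell the enzymes lie or which cells the reads came from. It was 2.01, 1.89, 1.58 and 1.84 in the deletion libraries, against 2.40, 1.38, 1.90 and 1.59 in the control libraries. The means, 1.83 ± 0.18 in deletion and 1.82 ± 0.44 in control mucosa (SD, n = 4 each), differed by 0.01 (two-sided exact permutation p = 1.0, where the smallest p that 4 libraries a group allow is 0.0286). The control libraries held both the highest ratio (replicate 1) and the lowest (replicate 2). In reads, Pde1c was 3.57 ± 0.425 times Pde4a in deletion and 3.65 ± 1.17 times in control mucosa. Leaving out control replicate 2 gave a log2 difference of -0.13, and leaving out control replicate 1 gave 0.21.

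Slc24a4 (ENSMUSG00000041771.13, plus strand, chr12:102128733-102267091) encodes NCKX4, the exchanger that clears calcium from the cilia. It had 3064, 2972, 3490.0 and 2505 scaled reads in the deletion libraries, against 3123, 4153, 2669 and 2824 in the control libraries. The highest library was control replicate 2 and the lowest was deletion replicate 4, and the groups overlapped. The means were 3008 ± 404 in deletion and 3192 ± 668 in control mucosa (SD, n = 4 each), a log2 fold change of -0.07 ± 0.14 (limma adjusted p = 0.909). It had the widest interval of the members, 0.767- to 1.18-fold, and without control replicate 2 its fold change was 0.06.

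Camk4 (ENSMUSG00000038128.6, plus strand, chr18:32934931-33191228), the kinase, was the least abundant member and, in scaled reads over all 8 libraries, the least variable. It had 439.7, 442, 406 and 385 scaled reads in the deletion libraries, against 391, 428, 425 and 409 in the control libraries. The deletion libraries spanned the wider range and enclosed all 4 control values. The means were 418 ± 27.7 in deletion and 413 ± 16.9 in control mucosa (SD, n = 4 each), a log2 fold change of 0.01 ± 0.10 (limma adjusted p = 0.974), whose sign changed with the scaling of the libraries. An antisense gene, 2310026I22Rik, shares exon positions with Camk4 but had only 0.98 to 5.15 scaled reads.

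The members differed more in how they varied between libraries than between the groups. The highest of the 8 libraries was 1.504 times the lowest for Calm2, 1.46 times for Calm3, 1.37 times for Pde1c, 1.66 times for Pde4a, 1.66 times for Slc24a4 and 1.15 times for Camk4. Control libraries varied more than deletion libraries for 5 members, with coefficients of variation of 6.27% in deletion and 15.4% in control libraries for Calm2, 6.82% and 15.1% for Calm3, 9.3% and 13.6% for Pde1c, 8.38% and 22.4% for Pde4a, and 13.4% and 20.9% for Slc24a4. Camk4 was the exception, with 6.63% in deletion and 4.09% in control libraries. Without control replicate 2 the control coefficients were 4.93% for Calm2, 6.66% for Calm3, 16.4% for Pde1c, 12.5% for Pde4a, 8.03% for Slc24a4 and 4.14% for Camk4, so that control libraries varied more for only 2 members, Pde1c and Pde4a. This difference in spread was not tested. Relative to the other 3 controls, control replicate 2 was lower by 0.46 on the log2 scale for Calm2 and by 0.43 for Calm3, higher by 0.55 for Pde4a and by 0.54 for Slc24a4, and within 0.07 for Pde1c and Camk4.

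**Figure D3:**
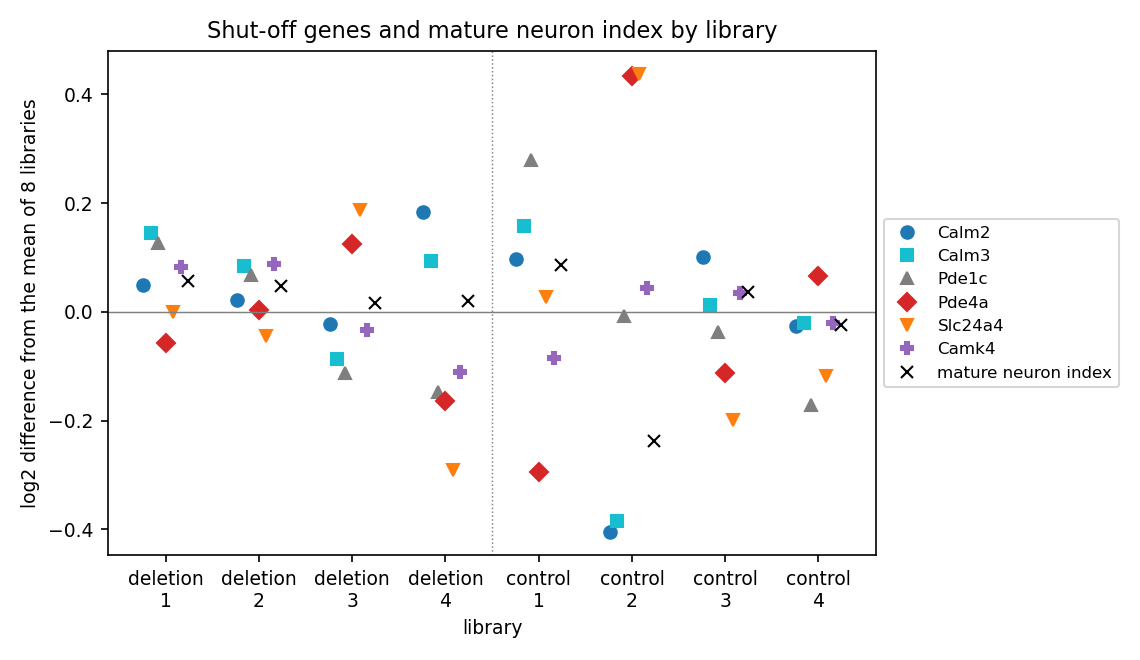
Log2 difference of each shut-off gene in each library from its mean over the 8 libraries (y axis), deletion libraries left of control libraries, with the mature neuron index as crosses. Control replicate 2 carries Calm2 and Calm3 at the low end and Pde4a and Slc24a4 at the high end, with the index also at its lowest, while Camk4 has the narrowest range over all 8 libraries.

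Markers of mature neurons and of other cells were also low in control replicate 2. Relative to the other 3 controls, its median log2 difference was -0.34 for the odorant transduction genes, -0.31 for immature neuron markers, -0.36 for sustentacular markers and -0.44 for respiratory epithelium and gland markers, against 0.26 for olfactory bulb markers and 0.37 for blood and immune markers. The blood and immune genes did not move together. Hbb-bs had 1443 scaled reads in control replicate 2, against a mean of 1070 in the other 3 controls, and 1708 in control replicate 4. Lyz2 had 2736 against 3712 and S100a8 had 221 against 324, both lower. An index of mature neuron RNA, the geometric mean of Omp, Adcy3, Cnga2, Cnga4, Cngb1, Gnal, Ano2 and Gng13, was 1.01 to 1.04 times its mean in the deletion libraries, against 1.06, 0.846, 1.02 and 0.981 in the control libraries. Control replicate 2 was the lowest of the 8 libraries for 12 of 13 odorant transduction genes. Divided by the index, the coefficient of variation over the 8 libraries was 6.49% for Calm2, against 11.3% in scaled reads, and 5.88% for Calm3, against 11.3%. The same division gave 10.9% for Pde1c both ways, and 24.6% for Pde4a, against 16.1%, 24.6% for Slc24a4, against 16.8%, and 9.88% for Camk4, against 5.14%. These differences came mostly from control replicate 2. Over the other 7 libraries, the coefficient of variation per index was 4.99% for Calm2, against 5.27% in scaled reads, 4.63% for Calm3, against 6.18%, 9.43% for Pde1c, against 11.8%, 11.5% for Pde4a, against 9.78%, 10.8% for Slc24a4, against 10.97%, and 5.56% for Camk4, against 5.43%. The part of cell composition in the members' values was not tested.

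As a description over 8 libraries, with each gene centred within its group, Calm2 and Calm3 correlated with Pearson r = 0.903. Pde4a ran opposite to both, with r = -0.952 for Calm2 and -0.951 for Calm3, and together with Slc24a4, with r = 0.756. Slc24a4 had r = -0.885 with Calm2 and -0.745 with Calm3. These values share their libraries and size factors, and without control replicate 2, over 7 libraries, several were smaller. They were then 0.563 for Calm2 with Calm3, -0.861 for Calm2 and -0.838 for Calm3 with Pde4a, 0.331 for Pde4a with Slc24a4, and -0.684 for Calm2 and -0.239 for Calm3 with Slc24a4. Over all 8, Pde1c had r of 0.123 with Calm2 and 0.443 with Calm3 (0.764 over the 7), and no pair that included Camk4 passed 0.449 in size.

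Among 14695 tested genes with at least 100 scaled reads on average, the genes most like each member by the same measure were different for each. For Calm2 they were Sumo2 (r = 0.992), which encodes a small ubiquitin-like modifier, Dnttip2 (0.989) and the odorant receptor gene Olfr1420 (0.988). For Calm3 they were Stom (0.998), which encodes the membrane protein stomatin, Cyp4v3 (0.998) and Serpinb7 (0.997). Pde1c was most like Ppp1r3c (0.994), a regulator of glycogen metabolism, Ppa1 (0.988) and Ttf2 (0.982). Pde4a was most like Sipa1l3 (0.996), Wipf2 (0.995) and Bahcc1 (0.994), and Slc24a4 most like RP23-354A20.1 (0.986), Arhgap17 (0.982) and Mboat2 (0.980). Camk4 had lower values, 0.967 for Clip4, 0.948 for Prpf40b and 0.947 for Lipg. No member's nearest 3 genes included another member. The r values named here are the highest found among 14695 genes over 8 libraries. The search was not repeated without control replicate 2, so these genes are a description of these libraries only.

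Levels were compared between genes as scaled reads per kilobase of exon. Calm2 had 35207 ± 2207 per kilobase in deletion and 32754 ± 5046 in control mucosa, and Calm3 12747 ± 870 in deletion and 11839 ± 1792 in control (SD, n = 4 each). These levels put them at the 99.8th and 99.6th percentile of tested genes. Pde1c followed with 1012 ± 94.1 in deletion and 1039 ± 141 in control mucosa, then Pde4a with 747 ± 62.6 in deletion and 783 ± 175 in control, Slc24a4 with 665 ± 89.4 in deletion and 706 ± 148 in control, and Camk4 with 128 ± 8.50 in deletion and 127 ± 5.19 in control. Of the neighbours in this order, Pde1c (906 to 1238 over the 8 libraries) overlapped Pde4a (617 to 1023), and Pde4a overlapped Slc24a4 (554 to 918), while the others did not overlap. Exon length was the union of annotated exons, which for Pde1c spans 14 transcripts and 20067 bp, so a transcript shorter than that union has its level understated.

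Within the phosphodiesterase genes, Pde1c had rank 2 and Pde4a rank 4 of 24 in control level per kilobase. Pde6d stood first, at 2548 in deletion and 2413 in control mucosa, but it encodes a prenyl-binding protein and not a catalytic subunit. Pde7b, a cAMP-specific enzyme, lay between the members at 909 in deletion and 896 in control mucosa, and its libraries overlapped both. The fifth, Pde8a, was lower, at 434 in deletion and 438 in control mucosa, and did not overlap Pde4a. Slc24a4 had rank 4 in deletion and rank 3 in control mucosa among 16 calcium exchangers and pumps. Above it stood the calcium pump of the endoplasmic reticulum Atp2a2 (3352 in deletion, 3156 in control) and its own paralog Slc24a2 (1134 in deletion, 1198 in control). Atp2a3 (676 in deletion, 627 in control) overlapped it. Camk4 had rank 7 of 14 calmodulin-dependent kinase genes and related genes, and its libraries overlapped neither Camkk2 above it (165 in deletion, 170 in control) nor Camkk1 below it (93.9 in deletion, 90.7 in control).

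**Figure D4:**
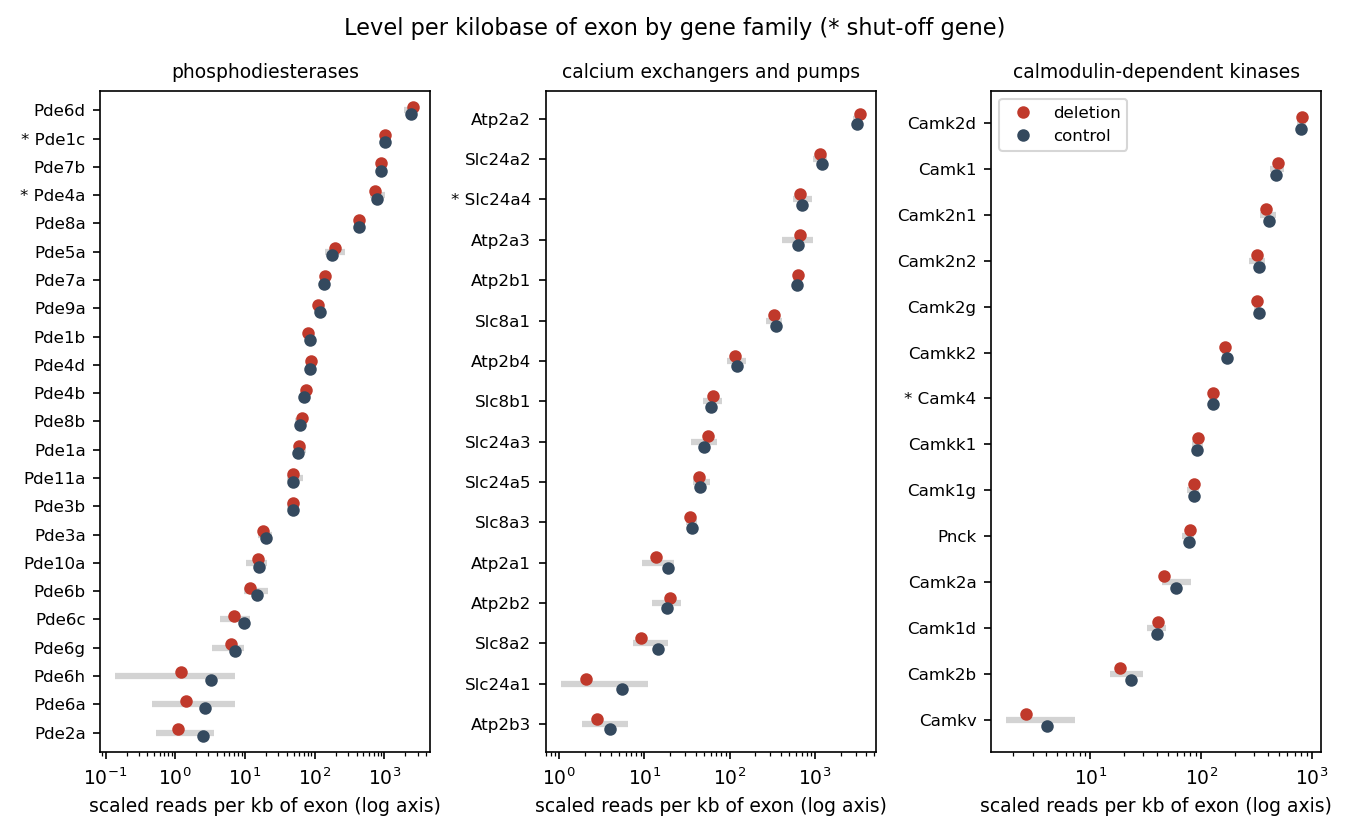
Scaled reads per kilobase of exon (log axis) of the phosphodiesterase, calcium exchanger and pump, and calmodulin-dependent kinase and related genes, with a point at each group mean, deletion drawn above control, a grey bar over the range of the 8 libraries, and shut-off genes starred. Pde4c, listed at 0, is not drawn. Pde1c and Pde4a lie among the 4 most abundant phosphodiesterase genes, at about 1012 and 747 in deletion mucosa, and Camk4 in the middle of its list.

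Of the other genes of the pathway, 0 passed in any list (limma, adjusted over all tested genes). All 13 odorant transduction genes were tested, with 0 called at an unadjusted p under 0.05, 12 above 0 and 1 below, and a median log2 fold change of 0.09 beside 0.02 for all tested genes. The median was 0.01 without control replicate 2. Omp, the olfactory marker protein, averaged 184504 scaled reads in deletion and 171013 in control mucosa (0.12 ± 0.11). Gnal (0.11 ± 0.08), the channel subunit Cnga4 (0.13 ± 0.09), the receptor chaperone Rtp1 (0.12 ± 0.08) and Stoml3 (0.09 ± 0.10) were alike in size. Without control replicate 2 these were 0.01 for Omp, 0.07 for Gnal, 0.05 for Cnga4, 0.06 for Rtp1 and -0.0081 for Stoml3.

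The other calmodulin-like and neuronal calcium sensor genes had 12 of 14 tested, 6 above 0 and 6 below, with a median of -0.0014. The neuronal calcium sensors Ncald and Ncs1 had 0.17 ± 0.09 and 0.06 ± 0.09, and the abundant S100a5 and Pcp4l1 had -0.14 ± 0.31 and -0.22 ± 0.34, with a wide spread between libraries. The other phosphodiesterases had 20 of 22 tested, 11 above 0 and 9 below, with a median of 0.00. Those with the smallest p were rare transcripts. Pde2a, a cGMP-stimulated enzyme, had 6.67 ± 2.90 scaled reads in deletion and 15.3 ± 7.57 in control mucosa (SD, n = 4 each), and Pde6h (-1.49 ± 0.75) and Pde6c (-0.52 ± 0.31) encode cone phosphodiesterase subunits.

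The other calcium exchangers and pumps had 15 of 15 tested, 6 above 0 and 9 below, with a median of -0.05. Control replicate 2 lay 0.32 above the other controls for this list (median log2 difference), and without it the median fold change was 0.03, with the sign turned. Slc8a2, a sodium/calcium exchanger, had 47.6 ± 6.46 scaled reads in deletion and 75.3 ± 21.9 in control mucosa (SD, n = 4 each), and was the 1 gene of these lists at an unadjusted p under 0.05 (0.0226, limma adjusted p = 0.869). Its groups did not overlap, and its log2 fold change was -0.62 ± 0.23. Slc24a1 (-1.06 ± 0.53) and Atp2a1 (-0.46 ± 0.24) were rare, while the abundant Slc24a2 (-0.08 ± 0.12) and Atp2a2 (0.09 ± 0.08) lay near 0. The other calmodulin-dependent kinase genes and related genes had 13 tested, 5 above 0 and 8 below, with a median of -0.04. Camk2a had 347 ± 23.8 in deletion and 443 ± 108 in control mucosa (-0.32 ± 0.15), Camk2b -0.32 ± 0.21 and Camkv -0.52 ± 0.42. The control mean of Camk2a rests in part on control replicate 2, at 601, and without it the fold change was -0.17. Camk2d (0.04 ± 0.09) and Camk1 (0.07 ± 0.09) were the kinases with the highest level per kilobase. The receptor kinase, arrestin and protein kinase A list had 15 tested, 9 above 0 and 6 below, with a median of 0.04. It included Prkar2b at 0.14 ± 0.11, Prkar1a at 0.09 ± 0.08, Prkaca at -0.01 ± 0.13, Arrb1 at -0.12 ± 0.09 and Grk5 at -0.16 ± 0.12.

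**Figure D5:**
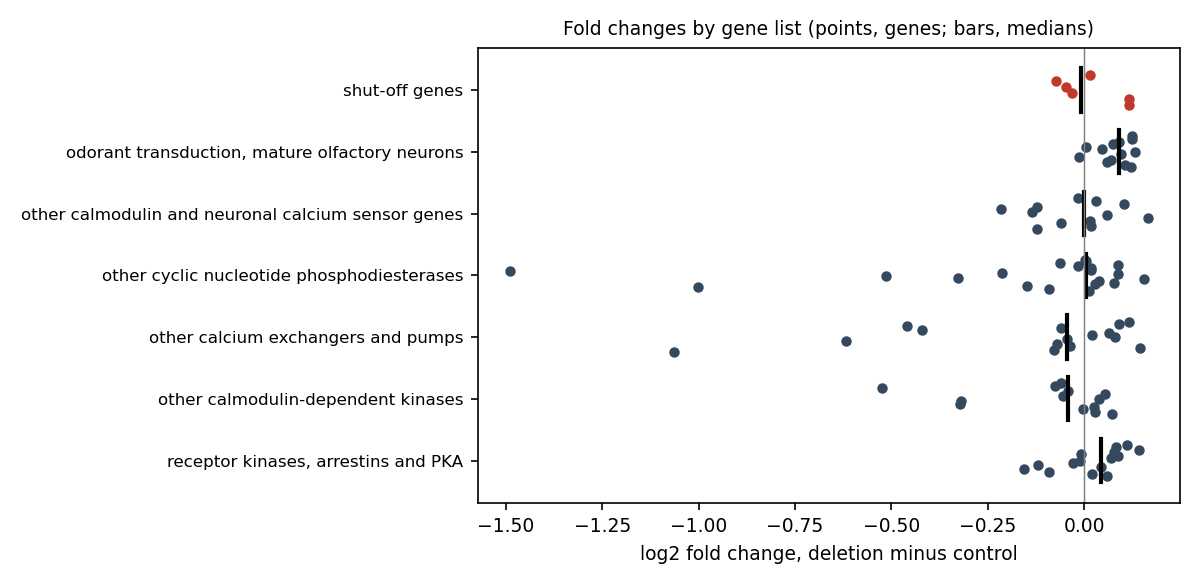
Log2 fold change (deletion over control) of every shut-off gene and every tested gene of each pathway list, with 1 point a gene and a bar at the list median. Medians lie between -0.05 and 0.09, and no point passes the test.

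Markers of other cells were present beside those of neurons, with 0 genes called in any marker list. Sustentacular cell markers were above 0 for 7 of 7 genes (median 0.19, and 0.10 without control replicate 2), with a summed level of 8422 to 8782 CPM in deletion and 6760 to 8119 CPM in control libraries. Control replicate 2 was the lowest of the 8 libraries for 6 of them. Ugt2a1 was rare, at 16.2 scaled reads in deletion and 15.1 in control mucosa (0.11 ± 0.30). Respiratory epithelium and gland markers were above 0 for 8 of 9 (median 0.22, and 0.19 without control replicate 2), at 11547 to 13071 CPM in deletion and 8301 to 12874 CPM in control libraries, where control replicate 2 was the lowest. Of these 9, Reg3g and Bpifa1 had an unadjusted p under 0.05 (0.0378 and 0.0288, limma adjusted p = 0.869 for both), against 3.5% of all tested genes. In 3 tested genes of the sustentacular and respiratory lists the deletion libraries all lay above the control libraries, beside 2.2% of all tested genes whose groups did not overlap in either direction. They were the sustentacular gene Sec14l3 (0.16, and 0.07 without control replicate 2) and the secreted proteins Reg3g (0.65, and 0.36 without it) and Bpifa1 (0.43, and 0.23 without it). Olfactory bulb markers had 3 of 9 above 0 and a median of -0.12, at 498 to 622 CPM in deletion and 524 to 618 CPM in control libraries. Of this list, Slc17a6, Snap25 and Cdhr1 had the most reads, averaging 9962, 9280 and 2757 scaled reads in deletion mucosa. Tbx21 and Th averaged 10.6 and 3.17 there, and 13.3 and 20.6 in control mucosa. Slc32a1, which did not pass the filter on low values, averaged 0.228 in deletion and 5.66 in control mucosa. The sum therefore says little about the rare genes of the list and does not show how much bulb tissue was present. Which cells the reads of the abundant genes came from was not tested. Gad1, an interneuron enzyme, had 8.11 ± 6.64 scaled reads in deletion and 41.8 ± 35.6 in control mucosa (SD, n = 4 each), where control replicate 2 had 92.4 and the other 3 averaged 24.9. The log2 fold change of Gad1 was -2.14 ± 0.64, and -1.64 without control replicate 2. It was the 1 gene of this list at an unadjusted p under 0.05 (0.00634, limma adjusted p = 0.869). Blood and immune markers had 2 of 8 above 0 (146 to 242 CPM in deletion, 125 to 209 CPM in control libraries), and muscle, bone and cartilage markers 4 of 8 (1428 to 1805 CPM in deletion, 1599 to 2322 CPM in control libraries). Immature neuron markers had 5 of 8 above 0 (1795 to 2042 CPM in deletion, 1830 to 2047 CPM in control libraries) and basal cell markers 4 of 9 (273 to 352 CPM in deletion, 301 to 352 CPM in control libraries). Vomeronasal and guanylyl cyclase D neuron markers had 3 of 7 above 0 (249 to 272 CPM in deletion, 241 to 295 CPM in control libraries), and Trpc2, the vomeronasal channel, was listed at 0 in all 8 libraries. The counter and annotation are not stated, so this value does not show that Trpc2 RNA was absent. The part of these cells in the members' values was not tested.

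In the authors' deposited table, whose log2 fold change runs control over deletion, the values were -0.08 for Calm2, -0.09 for Calm3, 0.03 for Pde1c, 0.05 for Pde4a, 0.06 for Slc24a4 and -0.01 for Camk4. With the sign allowed for, each member lay on the same side of 0 there as in the limma fit, and the authors' deposited table gives adjusted p-values of 0.923 to 0.984 for them.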

How the data were processed

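Total RNA was extracted with a Qiagen RNeasy kit and made into ribosome-depleted, stranded Illumina TruSeq libraries, per the labels. The submitters' processing notes name the build GRCm38.p6, STAR 2.6.0 and DESeq2. Which counter, strand setting and annotation were used is not stated there. The deposited table holds, per library, a signal of gene reads divided by a size factor, called scaled reads here. Every column's values are whole multiples of 1 read (100% of non-zero values within 0.001), so whole reads were recovered, and their sums are the depth. The authors' deposited table also gives its own log2 fold change and p-values, raw and adjusted, used only where named. Deletion columns are abbreviated otherwise than in the titles; replicate numbers matched them.

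Genes were kept with filterByExpr (minimum count 10), and log2(scaled reads + 1) was fitted with limma 3.58.1 in R 4.3.3 (trend, robust), deletion minus control, with Benjamini-Hochberg adjustment over 21974 genes and a threshold of 0.05. Fold changes are on that log2 scale. edgeR 4.0.16 on recovered reads called 16 genes, and DESeq2 1.42.0 called 23. The limma and edgeR fits were also run on simulated counts drawn independently for each library. The outcome is not given here, and no simulated library was shifted like control replicate 2. The ratio of Pde1c to Pde4a was tested by exact permutation, two-sided, over 70 assignments. Genes were matched to GENCODE M21 (54161 of 54982 rows) for coordinates, exon lengths and sequences.

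Members and lists were chosen with earlier results of these data known. Named genes are all members, and in each pathway list every gene that passed, the 3 with the smallest p and the 2 with the highest control level per kilobase, plus the 3 genes most like each member. Marker genes named singly are defining genes of their lists. Of these, Gad1, Slc32a1, Ugt2a1, Sec14l3, Reg3g, Bpifa1, Slc17a6, Snap25, Cdhr1, Tbx21, Th, Hbb-bs, Lyz2 and S100a8 were chosen after their values were seen. Alternatives changed the test, filter, pseudocount, scaling, block or libraries. Another gene and 2 planned measures that need it are not reported here.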

Additional observations from a re-analysis of the deposited data

Results flagged for a closer look

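In 120 sets of 4 libraries, each 1 listed gene or measure in 1 group, 5 values lay far from the other 3 libraries by Dixon's criterion for 4 values. Such a criterion marks about 1 in 20 sets by chance. No member was among them. Omp in deletion replicate 3 was at 170846 scaled reads, below 188291 to 190375 in the other deletion libraries, and Ncs1 in the same library was at 1501, below 1599.9 to 1611. S100a8, a neutrophil gene, was at 341 in that library, above 186 to 207. Krt18 in deletion replicate 1 was at 18517, above 16829 to 16853. Rtp1 in control replicate 2 was at 22395, below 26650.1 to 27074 in the other control libraries.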

How the results depend on the processing

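Under 19 alternatives, 0 members were called, with a range of 0 to 0 on leaving out each library. Genes called over the whole table numbered 16, with 13 to 28 on leaving out 1 library (28 without deletion replicate 4) and 10 among genes with a mean of at least 50 scaled reads, where fewer genes were tested. Calm2 and Calm3 kept a fold change above 0 under every alternative (0.0004 to 0.17 and 0.0087 to 0.19 on leaving out 1 library). Camk4 was below 0 with DESeq2 (-0.0074), edgeR (-0.0046), TMM scaling (-0.0046), library totals (-0.0149) and scaling by mature neuron genes (-0.0556), and ranged from -0.013 to 0.0534 on leaving out 1 library; the cause was not tested. The leave-one-out ranges also crossed 0 for Pde1c (-0.0947 to 0.0554), Pde4a (-0.152 to 0.0911), Slc24a4 (-0.1528 to 0.0598) and the log2 ratio of Pde1c to Pde4a (-0.1312 to 0.2074). Without the filter on low values the median of all genes was -0.20, and no other alternative moved it by over 0.1. Replicate numbers are shared by the groups, and these values cannot settle whether they pair libraries. Deviations of same-numbered libraries correlated at 0.325, 0.0878, -0.168 and 0.0533, and deletion replicate 4 was closest to control replicate 3 (0.393). With the replicate block, 14 genes and 0 members were called. Depth bears on Camk4, whose counting error is about as large as its spread, and little on the other members.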
